A study of Mus musculus with 8 samples.

Results

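The neurotrophic ligands Bdnf and Gdnf and 7 of the receptors for these families (Ntrk2, Ntrk3, Ngfr, Sort1, Ret, Gfra1 and Gfra2) were followed in the hippocampus of mice given FTY720 or saline. Members were all probe sets annotated to exactly 1 of these 9 genes, which gave 21 of the 22626 probe sets on the array, and each of the 9 genes, of 12393 genes measured, had at least 1 of its own. All 8 animals were male SCID mice aged 12 weeks, a strain whose mutation blocks the making of mature lymphocytes, and all went through contextual fear conditioning. The FTY720 group (mice 1, 4, 5 and 6) received 1 mg/kg of the sphingosine analogue by mouth in saline on 3 days, and the vehicle group (mice 13, 14, 15 and 16) received saline by mouth on the same number of days. Tissue from single animals was collected 1 hour after the memory test and 17 hours after the last dose, so each array is a separate mouse (n = 4 per group) and holds RNA of all hippocampal cell types together.

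Neurotrophins are secreted as precursors that are cleaved to mature growth factors. Mature BDNF binds the receptor tyrosine kinase TrkB, encoded by Ntrk2, and TrkC, encoded by Ntrk3, is the receptor for neurotrophin-3. The uncleaved precursors bind the low-affinity receptor p75, encoded by Ngfr, together with sortilin, encoded by Sort1. GDNF signals through a separate kinase, RET, which it reaches only when bound to a lipid-anchored co-receptor, Gfra1, while Gfra2 is the co-receptor preferred by neurturin. In the hippocampus Bdnf transcription is raised by neuronal activity, and the protein is known for its part in synaptic plasticity and memory.

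Bdnf is read from several promoters, and the array annotation gives no position for its probe sets, so the values below cannot be assigned to 1 of them. RefSeq (GRCm38.p6) windows of 250 bases before to 50 bases after a gene start were found for 5 of the 9 genes, 12 windows in all, of which 7 belong to Bdnf. They were searched on both strands for the half-site of the cyclic AMP response element, TGACG or CGTCA, because activity acts on Bdnf through factors that bind this element. The half-site was in 1 of the 7 Bdnf windows and in 1 of the 2 Gdnf windows, and in none of the single windows of Ntrk2, Ngfr and Gfra1, where 20.8% of all 32851 windows held it. The full element TGACGTCA, which contains the half-site, was in none of the 12 and in 1.79% of all windows. Both windows with a match are shown because these are the ligands of the set, with the half-site in capitals, for Bdnf at chr2:109692186-109692485 (plus strand) and for Gdnf at chr15:7809798-7810097 (plus strand). A match describes these letters only and is not a measured binding site.
Bdnf: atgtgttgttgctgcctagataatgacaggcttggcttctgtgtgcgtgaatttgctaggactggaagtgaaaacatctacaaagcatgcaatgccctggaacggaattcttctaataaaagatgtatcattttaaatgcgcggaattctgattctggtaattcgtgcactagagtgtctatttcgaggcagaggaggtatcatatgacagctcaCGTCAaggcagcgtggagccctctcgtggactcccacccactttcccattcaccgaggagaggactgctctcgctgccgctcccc
Gdnf: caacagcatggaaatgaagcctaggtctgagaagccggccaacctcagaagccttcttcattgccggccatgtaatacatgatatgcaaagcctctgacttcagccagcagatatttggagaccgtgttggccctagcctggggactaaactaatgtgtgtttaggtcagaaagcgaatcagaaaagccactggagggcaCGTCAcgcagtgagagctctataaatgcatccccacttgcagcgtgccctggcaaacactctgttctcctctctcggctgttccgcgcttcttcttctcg

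In the limma fit of all 22626 probe sets, an adjusted p under 0.05 was reached by none of the 21 members and by none of the others (0% called). The lowest adjusted p among the members was 0.685, for a dim Ntrk3 probe set. At an unadjusted p under 0.05 there were 3 of 21 member probe sets, where 6.76% of all probe sets reached that level. These were 2 Ntrk3 probe sets, higher with FTY720 (4.03% of all probe sets), and the only Ret probe set, lower with FTY720 (2.73% of all). Differences are FTY720 minus vehicle on the log2 scale, where 1 unit is a doubling. Of the 21 differences, 14 lay above 0 and 7 below, between -0.26 and 0.20, with a median of 0.04 against 0.009 for all probe sets. The median absolute difference was 0.06 for the members and 0.06 for all probe sets.

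**Figure D1:**
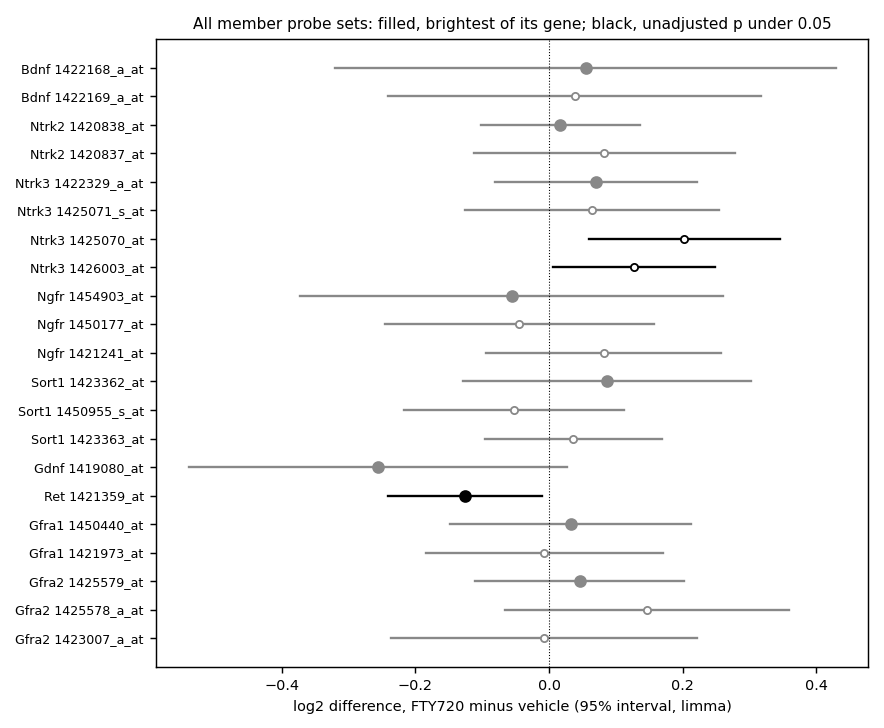
Log2 difference of FTY720 minus vehicle for each of the 21 probe sets (points) with the 95% interval of the limma fit (lines); filled points are the brightest probe set of a gene, and black marks an unadjusted p under 0.05. Most intervals cross 0, and those of 2 Ntrk3 probe sets and of Ret lie to 1 side of it.

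Array signals of different probe sets are not on a common scale, so levels are compared between mice and not between genes. Both Bdnf probe sets and the brightest ones of Ntrk2, Ntrk3 and Sort1, 5 of the 21, had a mean above 6.70, the median of all probe sets. All probe sets of Gdnf, Ret, Ngfr, Gfra1 and Gfra2 had a mean below this median, though single mice passed it for the brightest of Gfra2. No filter on low signal was applied, so all 21 were tested.

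Array medians spanned 6.69 to 6.72 with FTY720 and 6.68 to 6.71 with vehicle, and no 2 arrays were identical. The array of vehicle 15 stood apart, with a median r of 0.994 to the rest, against 0.996 to 0.998 for the 7 other mice. Its mean over 6 of 6 thalamus and habenula markers stood 1.34 above the mean of the 8 mice, where FTY720 mice lay between -0.49 and -0.25 and the other vehicle mice between -0.32 and 0.28. Vehicle 13 and 14, at 0.13 and 0.28, also lay above every FTY720 mouse, and vehicle 16 lay among them. All 6 of these markers were lower with FTY720, with a median difference of -0.77. Of these, 4 had an unadjusted p under 0.05 in the limma fit (2.7% of all genes), and none passed adjustment. Over 4 of 7 striatum markers vehicle 15 stood at 1.21, where FTY720 mice lay between -0.35 and -0.19 and the other vehicle mice between -0.34 and 0.45. Over 4 of 6 markers of basal forebrain cholinergic neurons it stood at 1.40, carried by the transcription factors Lhx8 (6.83) and Isl1 (7.76), while the acetylcholine transporter Slc18a3 (3.53) and the choline transporter Slc5a7 (4.15) were dim in that mouse too. Hippocampal principal neuron markers were present, 5 of the 6 measured above the median level, and all 6 measured lymphocyte markers lay below it. All 5 measured of 6 oligodendrocyte markers were lower with FTY720 at an unadjusted p under 0.05 (2.7% of all genes), none passing adjustment, with Mog, a myelin protein gene, at -0.54 (SE 0.12). The list mean of FTY720 mice ran from -0.33 to -0.06, against -0.04 to 0.35 for vehicle mice, so the groups did not overlap. Over 5 of 6 neuron markers the group list means did not overlap either, at 0.0541 to 0.0946 in FTY720 mice, against -0.193 to 0.0458 in vehicle mice. Of these 5 genes, 4 were higher with FTY720, and Snap25 was lower at -0.07 (SE 0.06). Only Map2, at 0.42 (SE 0.12), had an unadjusted p under 0.05 (3.57% of all genes in that direction). Map2 was also the 1 gene of the list whose own groups did not overlap (2.65% of all probe sets with FTY720 above). The nearest list means were close, 0.0541 in FTY720 1 and 0.0458 in vehicle 13, and the list mean without Map2 was not computed. The ranges of the list means overlapped for astrocyte (6 of 6), microglia (6 of 6) and choroid plexus markers (4 of 6), the last spanning -1.29 to 0.83 in FTY720 mice and -0.95 to 1.45 in vehicle mice. Vehicle 16 had the most negative Gapdh 5′ minus 3′ difference, -1.46, a sign of RNA shortening, against -1.08 to -0.80 in FTY720 mice and -1.18 to -1.07 in the other vehicle mice. Some of the marker values are repeated beside a member, and the part of the markers in the results was not tested. The Gapdh difference served as a covariate in 1 of the alternative fits, given with the other alternatives at the end.

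Bdnf, the activity-induced ligand, did not differ between the groups beyond its spread. The brighter of its probe sets (1422168_a_at) read 8.38, 8.49, 8.57 and 8.45 in FTY720 mice 1, 4, 5 and 6, against 8.73, 8.62, 7.81 and 8.51 in vehicle mice 13, 14, 15 and 16. All 4 FTY720 values fell inside the vehicle range, which was set at its low end by vehicle 15. Means were 8.47 ± 0.08 in FTY720 mice and 8.42 ± 0.41 in vehicle mice (SD, n = 4 each). The difference was 0.05 (SE 0.17, limma adjusted p = 0.968), with a 95% interval of 0.80-fold to 1.35-fold.

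The second Bdnf probe set (1422169_a_at) gave 7.79, 7.78, 7.78 and 7.69 in FTY720 mice, against 7.95, 7.78, 7.29 and 7.87 in vehicle mice. Vehicle 15 was again the lowest mouse and vehicle 13 the highest, and the difference was 0.04 (SE 0.13, limma adjusted p = 0.969). Both signs rested on vehicle 15. With that mouse left out the differences became -0.15 and -0.11, and with vehicle 16 left out as well they became -0.20 (limma unadjusted p = 0.0228) and -0.10 (limma unadjusted p = 0.163).

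The mouse with the most Bdnf was not the one with the most of the best-known activity-induced transcripts. The transcription factor genes Fos and Egr1 and the synaptic gene Arc read 10.1, 12.6 and 9.72 in vehicle 16, their highest values among the 8 mice, where Bdnf read 8.51. In vehicle 13, which had the highest Bdnf value, Fos read 8.86, Egr1 11.6 and Arc 8.23. Nr4a2, another activity-induced transcription factor gene, had the same extremes as Bdnf, with its highest value in vehicle 13 (9.12) and its lowest in vehicle 15 (7.92). Arc was lowest in vehicle 15 too (7.45).

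Gdnf, the ligand of the RET complex, had the difference farthest from 0 among the members and a dim signal. Its only probe set read 3.64, 3.75, 3.46 and 3.80 in FTY720 mice, against 3.62, 3.81, 4.25 and 4.00 in vehicle mice. Vehicle 14, 15 and 16 lay above every FTY720 mouse, and vehicle 13 lay among them. The difference was -0.26 (SE 0.13, limma adjusted p = 0.743), and the two-sided exact permutation p was 0.171. It was -0.15 without vehicle 15 and -0.05 without vehicle 15 and 16.

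**Figure D2:**
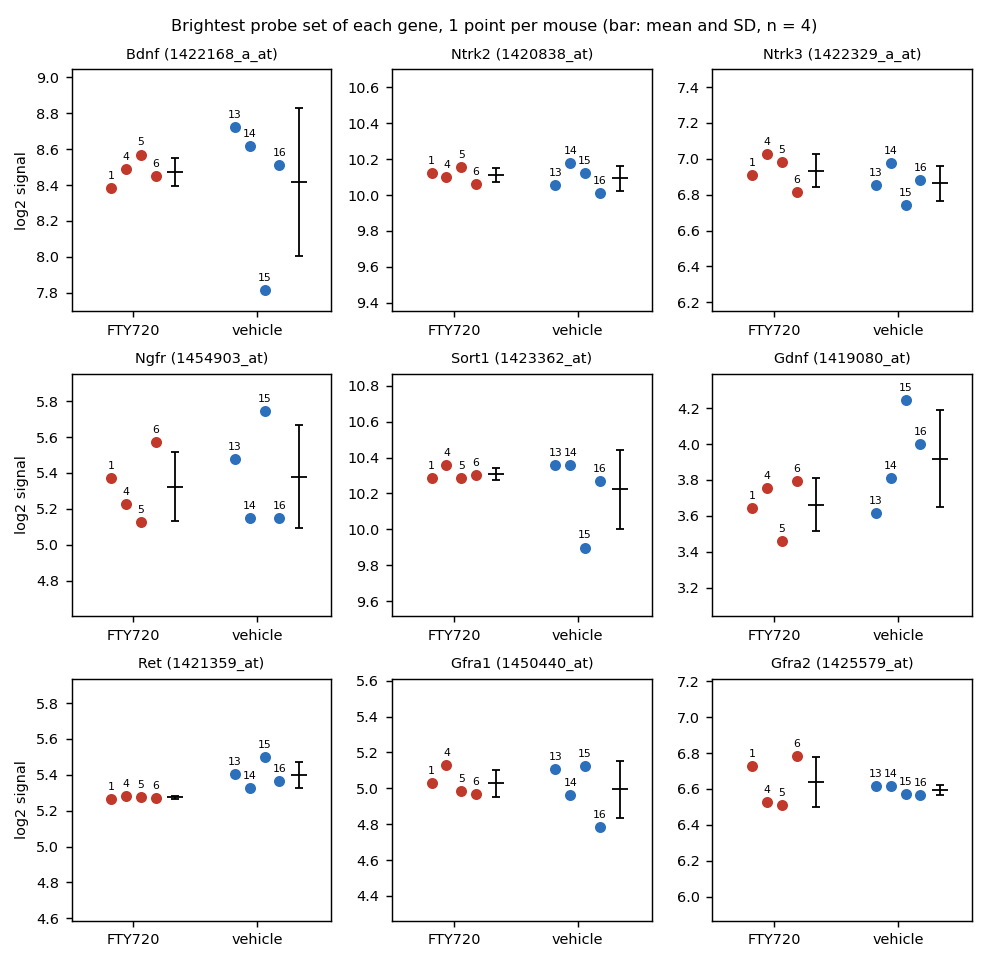
Log2 signal of the brightest probe set of each gene in each mouse (points, with the mouse number), FTY720 in red and vehicle in blue, with mean and SD beside each group (n = 4). All panels span the same log2 range, and vehicle 15 is the lowest point for Bdnf, Sort1 and Ntrk3 and the highest for Gdnf, Ngfr and Ret.

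Ntrk2, which encodes the BDNF receptor TrkB, had nearly the same signal in all mice. Its bright probe set (1420838_at) read 10.12, 10.10, 10.15 and 10.06 in FTY720 mice, against 10.06, 10.18, 10.12 and 10.01 in vehicle mice. The groups overlapped along their whole range, and the SD was 0.04 in FTY720 mice and 0.07 in vehicle mice. The difference was 0.02 (SE 0.05, limma adjusted p = 0.968), with a 95% interval of 0.93-fold to 1.10-fold. The dim Ntrk2 probe set (1420837_at) differed by 0.08 (SE 0.09, limma adjusted p = 0.878), and its lowest value, 5.14, was that of vehicle 16.

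Ntrk3, which encodes TrkC, stood higher with FTY720 in all 4 of its probe sets, by 0.06 to 0.20, and none passed adjustment. The brightest (1422329_a_at) read 6.91, 7.03, 6.98 and 6.82 in FTY720 mice, against 6.85, 6.98, 6.74 and 6.88 in vehicle mice. These groups overlapped, and the difference was 0.07 (SE 0.07, limma adjusted p = 0.865), or 0.03 without vehicle 15, the lowest mouse. The largest of the 4 differences came from a dimmer probe set (1425070_at), with 5.10, 4.94, 5.06 and 5.05 in FTY720 mice, against 4.79, 4.78, 4.79 and 4.99 in vehicle mice. Vehicle 16 lay among the FTY720 mice there, and the other 3 vehicle mice lay below all of them. The difference was 0.20 (SE 0.06, limma unadjusted p = 0.0102, adjusted p = 0.685), or 1.15-fold with a 95% interval of 1.04-fold to 1.27-fold, and the two-sided exact permutation p was 0.0571.

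The dimmest Ntrk3 probe set (1426003_at) read 3.96, 3.96, 4.02 and 4.07 in FTY720 mice, against 3.80, 3.92, 3.93 and 3.84 in vehicle mice. Its groups did not overlap, as in 4.38% of all probe sets (2.65% with FTY720 above), by a margin that left FTY720 1 at 3.96 just above vehicle 15 at 3.93. The difference was 0.13 (SE 0.05, limma unadjusted p = 0.0412, adjusted p = 0.711), with an exact permutation p of 0.0286, the smallest that 4 against 4 mice allow. The limma unadjusted p was 0.082 to 0.117 without FTY720 5, FTY720 6, vehicle 13 or vehicle 16, each left out alone, and 0.0777 with trended and robust variances. The probe set 1425071_s_at differed by 0.06 (SE 0.09, limma adjusted p = 0.905), by 0.009 without vehicle 15, and by -0.02 without vehicle 15 and 16. The 1425070_at difference was 0.19 without vehicle 15, 0.25 without vehicle 15 and 16, and 0.33 with the Gapdh covariate. Its limma unadjusted p stayed under 0.05 in every alternative that gave a value (0.000957 with that covariate to 0.0318 without FTY720 1). None of these passed adjustment, and with the same covariate 1426003_at differed by 0.11 (limma unadjusted p = 0.191). Probe sets of a gene share the same RNA samples and are not replicates of each other.

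Ngfr, which encodes the p75 receptor, was dim and uneven between mice. Its brightest probe set (1454903_at) read 5.37, 5.23, 5.13 and 5.57 in FTY720 mice, against 5.48, 5.15, 5.75 and 5.15 in vehicle mice. Vehicle 15, with the high Lhx8 and Isl1 signals, had the highest value and FTY720 6, whose cholinergic marker mean was -0.15, the next highest. The difference was -0.06 (SE 0.14, limma adjusted p = 0.959), and it was 0.07 without vehicle 15 and 0.009 without FTY720 5. The other Ngfr probe sets differed by -0.04 (SE 0.09) and 0.08 (SE 0.08), and vehicle 15 was not the highest mouse in either.

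Sort1, which encodes the sorting receptor sortilin, was bright and, apart from vehicle 15, even. Its brightest probe set (1423362_at) read 10.29, 10.36, 10.29 and 10.30 in FTY720 mice, against 10.36, 10.36, 9.90 and 10.27 in vehicle mice. The FTY720 mice lay within the vehicle range. The difference was 0.09 (SE 0.10, limma adjusted p = 0.882), with a 95% interval of 0.91-fold to 1.23-fold, and it was -0.02 without vehicle 15. The probe sets 1450955_s_at and 1423363_at differed by -0.05 (SE 0.07) and 0.04 (SE 0.06), and vehicle 15 was the lowest of the 8 mice in both.

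**Figure D3:**
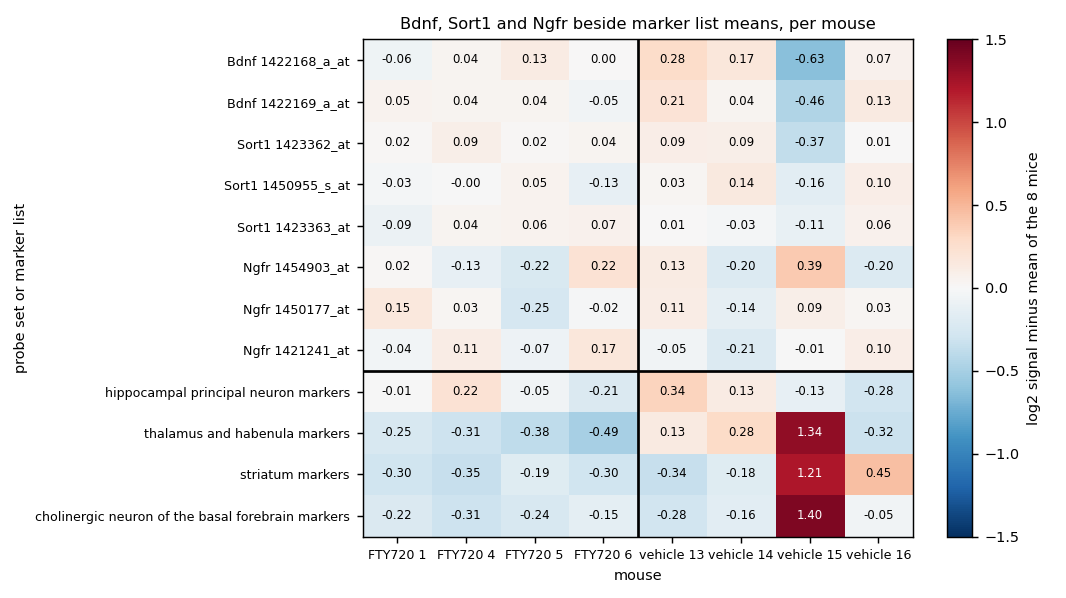
Log2 signal of each mouse minus the mean of the 8 mice, for the probe sets of Bdnf, Sort1 and Ngfr (upper rows) and for the mean of 4 marker lists (lower rows), FTY720 mice on the left of the vertical line. Vehicle 15 holds -0.63 for the brighter Bdnf probe set and 1.34, 1.21 and 1.40 for the thalamus, striatum and cholinergic lists.

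Ret, which encodes the signalling kinase of the GDNF family, had its 4 FTY720 values below the whole vehicle range. Its only probe set (1421359_at) read 5.27, 5.28, 5.27 and 5.27 in FTY720 mice, against 5.41, 5.33, 5.50 and 5.36 in vehicle mice. The FTY720 values were nearly identical, with an SD of 0.008 against 0.07 in vehicle mice, where the median SD over all probe sets was 0.09 in FTY720 and 0.10 in vehicle mice. The difference was -0.13 (SE 0.05, limma unadjusted p = 0.0362, adjusted p = 0.708), or 0.92-fold with a 95% interval of 0.85-fold to 0.99-fold. The exact permutation p was 0.0286, again the smallest possible, and 1.74% of all probe sets had groups apart in this direction. Vehicle 15 had the highest value, and without it the difference was -0.09 (limma unadjusted p = 0.0841). The unadjusted p was also above 0.05, at 0.0589 to 0.0709, without FTY720 1, 4, 5 or 6 or vehicle 13, each left out alone, and 0.078 with trended and robust variances. The oligodendrocyte marker list likewise had its FTY720 mice below its vehicle mice, but within the vehicle group its order differed from that of Ret. Vehicle 15, highest for Ret, stood at 0.06 in that list. Vehicle 16, highest in that list at 0.35, read 5.36 for Ret. Vehicle 15 was also highest in the thalamus, striatum and cholinergic lists, at 1.34, 1.21 and 1.40. The part of any of these lists in the Ret difference was not tested. In whole tissue, fewer cells that express Ret and less Ret RNA per cell cannot be told apart.

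The co-receptors Gfra1 and Gfra2 overlapped between the groups in all 5 of their probe sets. The brightest of Gfra1 (1450440_at) read 5.03, 5.13, 4.98 and 4.97 in FTY720 mice, against 5.11, 4.96, 5.13 and 4.78 in vehicle mice. Its difference was 0.03 (SE 0.08, limma adjusted p = 0.959), and the other Gfra1 probe set gave -0.007 (SE 0.08). The brightest of Gfra2 (1425579_at) read 6.73, 6.53, 6.51 and 6.78 in FTY720 mice, against 6.61, 6.62, 6.57 and 6.57 in vehicle mice. The FTY720 mice were spread more widely here, with 2 above and 2 below all vehicle mice, and the difference was 0.05 (SE 0.07, limma adjusted p = 0.916). The other Gfra2 probe sets differed by 0.15 (SE 0.10) and -0.007 (SE 0.10). The first of these (1425578_a_at) was 0.23 without vehicle 15 (limma unadjusted p = 0.011) and 0.06 without vehicle 16.

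Probe sets of the same gene did not give detectably different group differences. Each of 12 further probe sets was set against the brightest of its gene within every mouse. The gap between the probe sets differed between the groups by -0.14 to 0.14, and none of the 12 had a two-sided exact permutation p under 0.05 (lowest 0.0857, adjusted p over the 12 pairs at least 0.931). The smallest p this test can give is 0.0286, and 1 pair at that p would not pass adjustment over 12 pairs. The result therefore does not show that the probe sets of a gene agree. Of the 7 genes with several probe sets, Bdnf, Ntrk2 and Ntrk3 had all of them on the same side of 0, while Ngfr, Sort1, Gfra1 and Gfra2 had both signs.

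For the 4 genes with a brightest probe set above the median level, the genes of most similar pattern over the 8 arrays were picked from 6975 genes above that level. They were chosen for their correlation out of that number, so it is a description without a test. For Bdnf these were Rasl10a, Ctdsp2 and Cela1, with Pearson r of 0.981, 0.979 and 0.974. Without vehicle 13 and 15, the mice farthest from the Bdnf median, r was 0.795, 0.893 and 0.788. For Sort1 they were Ryr2, Npdc1 and Camta2, with r of 0.990, 0.984 and 0.983, or 0.821, 0.885 and 0.941 without the same 2 mice. For Ntrk2 they were Tmem205, Mrpl17 and Rexo2 (r 0.960 to 0.975), and for Ntrk3 they were Slc30a6, Atf5 and Prodh (r 0.958 to 0.971).

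The wider pathway was described by 6 lists with 85 measured genes in all, each gene by its brightest probe set. None of the 85 passed adjustment in the limma fit, and 7 had an unadjusted p under 0.05, where 6.26% of all 12393 genes did. Of these 7, 2 were higher with FTY720 (3.57% of all genes) and 5 lower (2.7% of all genes). The median difference was -0.002 over the 85 genes and 0.007 over all genes.

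Among other ligands and receptors of both families, 5 of 10 were measured, and 1 had an unadjusted p under 0.05. This was Artn, which encodes the ligand artemin, at 5.15, 5.10, 4.86 and 5.26 in FTY720 mice, against 4.66, 4.71, 4.82 and 4.97 in vehicle mice. The groups overlapped, since vehicle 16 lay above FTY720 5, and the difference was 0.30 (SE 0.09, limma adjusted p = 0.685). The ligand gene Pspn (persephin) differed by -0.09 (SE 0.05), and the co-receptor gene Gfra4 by 0.09 (SE 0.07).

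Sortilin relatives and enzymes that cut proneurotrophins had 15 of 16 measured, 7 higher and 8 lower, with 1 at an unadjusted p under 0.05. This was Mmp9, an extracellular protease, at -0.20 (SE 0.07, limma adjusted p = 0.699). The convertase gene Pcsk7 differed by 0.12 (SE 0.06) and the sortilin relative Sorcs1 by -0.21 (SE 0.10). Of the partners of p75 and Trk receptors, 10 of 15 were measured and none had an unadjusted p under 0.05. The adaptor genes Traf6, Cd2ap and Sh2b1 came closest, at 0.13 (SE 0.06), -0.13 (SE 0.07) and 0.08 (SE 0.06).

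Signalling genes below Trk and RET had 28 of 40 measured, 13 higher and 15 lower, with 3 at an unadjusted p under 0.05. The docking protein gene Gab1 differed by -0.26 (SE 0.08, limma adjusted p = 0.690), and Rps6ka3, a kinase activated by ERK, by -0.27 (SE 0.10, limma adjusted p = 0.699). The scaffold gene Ksr1 differed by 0.24 (SE 0.09, limma adjusted p = 0.702), with vehicle 15 the lowest mouse at 7.77, and by 0.15 without it (limma unadjusted p = 0.054). Transcriptional regulators of Bdnf had 14 of 17 measured, 7 on each side of 0. Crtc2, a coactivator of CREB, differed by -0.19 (SE 0.07, limma adjusted p = 0.699) and was the 1 gene at an unadjusted p under 0.05, followed by the E-box factors Usf1 at 0.13 (SE 0.07) and Usf2 at 0.10 (SE 0.07), which were 0.08 and 0.04 without vehicle 15.

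Activity-induced genes had 13 of 15 measured, 5 higher and 8 lower, with a median of -0.08. Nptx2, which encodes a pentraxin secreted at synapses, was the 1 gene at an unadjusted p under 0.05, at -0.36 (SE 0.14, limma adjusted p = 0.704). The transcription factor genes Nr4a2 and Fosb differed by 0.40 (SE 0.20) and -0.23 (SE 0.16). Vehicle 16 had the highest value of the 8 mice for every measured gene of this list except Nr4a2 and Egr3. It read 7.76 for Nptx2 and 5.77 for Fosb. The list median without this mouse was not computed. Without vehicle 16 the Nptx2 difference was -0.21 and the Fosb difference -0.05. Nptx2 differed by -0.17 without vehicle 15 and 16 (limma unadjusted p = 0.125) and by -0.05 once the Gapdh 5′ to 3′ loss was a covariate (limma unadjusted p = 0.7). Nr4a2 differed by 0.20 without vehicle 15 and by 0.09 without vehicle 15 and 16.

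**Figure D4:**
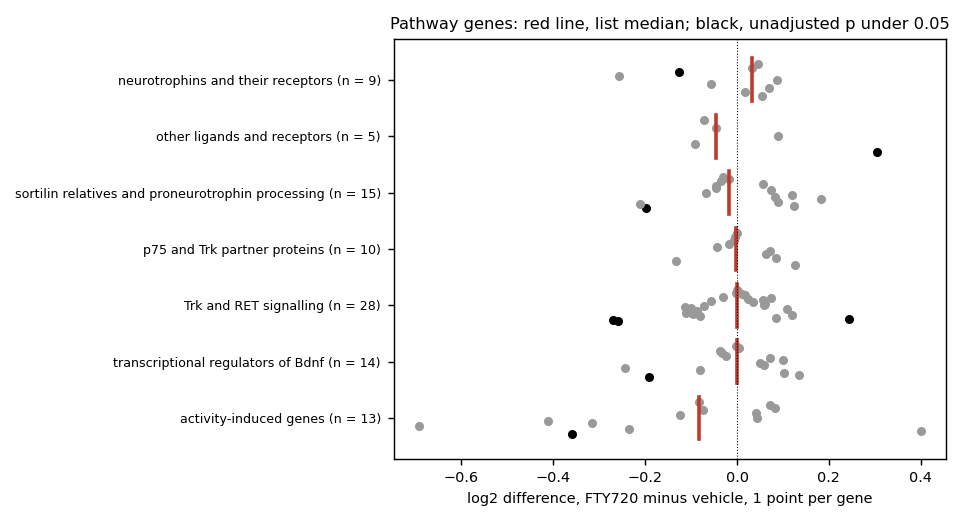
Log2 difference of FTY720 minus vehicle for each gene (points, brightest probe set) of the 9 members and of the 6 pathway lists, with the list median as a red line and black points at an unadjusted p under 0.05. The list medians lie close to 0, between -0.08 for activity-induced genes and 0.03 for the members.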

How the data were processed

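Total RNA (100 ng) from each hippocampus was hybridised to 1 Affymetrix 3′ array per mouse, per the labels' protocols. The deposited values are log2 signals per probe set, a scale read from their range. The submitters' processing notes list MAS5, RMA and Affymetrix Expression Console without role or version, and which of them made the values, a genome build and a scan date are not given in the sources used here. Values were used as deposited, with no filter. After removal of 64 control probe sets, all 22626 were fitted with limma 3.58.1 in R 4.3.3 (lmFit, eBayes, no covariate), with Benjamini-Hochberg adjustment over all of them. Probe sets were named through the platform annotation, in which 20380 had 1 symbol, 691 several and 1555 none. Single probe sets were also tested by exact permutation (two-sided, 70 ways to assign the mice). SE values come from the fit, and SD values are between mice. The number of mice limits the precision.

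The members and gene lists were chosen with earlier results of these data known. All member probe sets are named, with the 3 genes of smallest unadjusted p per pathway list and the 3 most similar genes per member above the median level, predicted-gene and clone names passed over. Fos, Egr1, Arc and Egr3, and the markers Lhx8, Isl1, Slc18a3 and Slc5a7, were named after their values were seen. The fit was run on simulated data with independent noise per probe set and changes set only in probe sets above the median level. Such data hold no differences shared by a whole mouse, and 16 of the 21 members lie below that level. The run therefore gives no measure of how well changes in those members would be found. Alternatives covered normalization, low signal, variance model, array weights, probe set choice, single mice, vehicle 15 and 16 together, and a covariate for the 5′ to 3′ loss of the Gapdh controls. Replicate numbers are not shared between groups, so mice were not paired.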

Additional observations from a re-analysis of the deposited data

Results flagged for a closer look

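In 4 of the 42 sets of 4 mice (21 probe sets, 2 groups), 1 mouse stood far from the other 3 of its group, with a gap to its nearest neighbour above Dixon's 95% limit. Chance alone marks about 1 set in 20. FTY720 6 had the lowest signal of its group for the second Bdnf probe set (1422169_a_at), 7.69, where the others lay at 7.78 and 7.79. FTY720 1 had the lowest for Sort1 1423363_at, 6.46. Vehicle 16 had the highest signal of its group for Ntrk3 1425070_at, 4.99, and for Gfra2 1423007_a_at, 4.63.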

How the results depend on the processing

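The differences are small against the spread, so many signs were not stable. Over 16 alternatives, 7 of the 21 member probe sets kept their sign in all that gave a value (among them Ret, Gdnf and 3 of 4 of Ntrk3), and none passed an adjusted p of 0.05 in any. The cause was not tested. With array weights the sign turned for Bdnf (-0.084 and -0.052) and Gfra2 1423007_a_at (0.0088). With vehicle 15 and 16 left out it turned for Bdnf (-0.198 and -0.104), Ntrk2 1420838_at (-0.0076), Ntrk3 1425071_s_at (-0.0215), Ngfr 1454903_at (0.010), Sort1 1423362_at (-0.051), Gfra1 (-0.0077 and 0.023) and Gfra2 1423007_a_at (0.091). With the Gapdh covariate it turned for Ntrk2 1420837_at (-0.023), Sort1 1450955_s_at (0.036), Gfra1 1450440_at (-0.129) and Gfra2 (-0.035 and 0.106). Among named pathway genes, which are not members, the sign turned for Gfra4 without vehicle 15 and 16 (-0.0087) and for Fosb with the covariate (0.0071). With 1 mouse left out at a time, Bdnf ranged from -0.146 to 0.158 and from -0.107 to 0.114 in its probe sets, Ntrk2 from -0.0091 to 0.045 and from -0.0033 to 0.137, Ngfr from -0.139 to 0.066 and from -0.104 to 0.031, Sort1 1423362_at from -0.021 to 0.133, Gfra1 from -0.038 to 0.076 and from -0.0595 to 0.043, and Gfra2 from -0.0033 to 0.088 and from -0.075 to 0.085. Member probe sets at an unadjusted p under 0.05 numbered 3 in the main fit. Among probe sets above the median level they numbered 0, since those 3 have means below it and are removed. They numbered 1 with trended and robust variances, 1 with a single probe set per gene and 2 with the Gapdh covariate. The number was 3 with quantile normalization, 3 without vehicle 15 and 16, and 4 with array weights. With 1 mouse left out it was 1 to 3 (1 without FTY720 5 and 1 without FTY720 6). The 7 pathway genes at that level were 3 without _x_at, _s_at and _a_at probe sets, which removes the probe sets of Artn, Gab1, Ksr1 and Crtc2. That setting also removes both Bdnf probe sets, which are members and not pathway genes. The pathway count was 4 without vehicle 15 and 16, 3 with the Gapdh covariate and 4 to 10 with 1 mouse left out, 4 without FTY720 4 and 10 without vehicle 13. Over the whole array the 1529 probe sets at that level were 969 above the median level, 995 without those probe set types, 823 with 1 per gene, where fewer are tested in each, and 948 with the covariate. No paired analysis was possible because the groups share no replicate number. Signal over background limits the dim genes.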
